A study of Mus musculus with 8 samples.

Results

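The transcripts described here are 10 genes whose products mark mast cells and basophils, *Tpsb2*, *Cpa3*, *Prss34*, *Mcpt8*, *Gzmb*, *Fcer1a*, *Ms4a2*, *Hdc*, *Il1rl1* and *Gata2*, out of 54838 genes listed in the count data. They were found by their Ensembl identifiers through the symbols of GENCODE M21, and all 10 were among the 12405 genes that passed the filter on low counts. The set was put together because these genes were seen to be higher with IOX5 in the same libraries, so their change with IOX5 is given as a description and carries no test. Within each replicate number, 9 of the 10 genes were higher with IOX5 than with DMSO in all 4 numbers, beside 21.3% of all genes tested, and *Gata2* was higher in 3. The log2 fold changes ran from 0.24 for *Hdc* to 2.03 for *Tpsb2*.

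Gene expression was measured by RNA-seq in *iMLL-AF9* cells, mouse cells that carry an inducible *MLL-AF9* fusion oncogene, after treatment with IOX5, an inhibitor of the HIF prolyl hydroxylase PHD2, or with DMSO, the vehicle. There were 4 DMSO and 4 IOX5 libraries, numbered 1 to 4 in each group. All 8 shared the *iMLL-AF9* background, a genotype entry of WT and bone marrow as the source, and the labels class the cells as leukaemic stem cells while the description of the series calls them preleukaemic. The dose, the length of treatment, the age of the animals and the meaning of the numbers are not given for these libraries, and nothing says whether they came from separate mice or cultures, so p-values measure only the spread between these samples. Reads counted on genes ran from 11351507 to 14116054 per library, and levels are given as CPM, counts scaled to a common library size with TMM factors.

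Mast cells and basophils are granulocytes of allergic inflammation that carry the high-affinity receptor for IgE on their surface. Binding of an antigen to this receptor-bound IgE releases stored granules, which hold histamine and serine and metalloproteases, and sets off the synthesis of lipid mediators and cytokines. Both cell types arise in the bone marrow from myeloid progenitors, with GATA factors among the regulators of their genes.

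The DMSO and IOX5 libraries overlapped for each of the 10 genes, whereas 5.98% of all genes tested had every IOX5 library above every DMSO library. The mean log2 CPM of a number ranged over 1.60 log2 units (*Ms4a2*) to 6.03 (*Tpsb2*) between the 4 numbers, against a median range of 0.31 over all genes tested. The range was at least 2 log2 units for 7 of the 10 genes, and for 3.29% of all genes tested. IOX5 was therefore compared with DMSO within each number. In the fit by edgeR with the number as a block, all 10 genes were called higher at a Benjamini-Hochberg adjusted p under 0.05, beside 11.2% of all genes, and nothing is read from this count since the same contrast chose the genes. Without the block, edgeR called 0 of the 10, with 0 at an unadjusted p under 0.05, beside 0.774% of all genes called higher and 1.25% called lower, and DESeq2 with the block called 9, beside 8.13% of the 11683 genes to which it gave an adjusted p.

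The stretches just upstream of the annotated starts are shown for 6 of the genes, because a short GATA motif recurred there and GATA factors bind such letters. Promoters of 9 of the 10 genes, all but *Tpsb2*, were matched in RefSeq (GRCm38.p6), 11 in all. Each promoter covered 250 bases before and 50 bases after the start. The motif was searched on both strands as the letters GATA preceded by A or T and followed by A or G. Capitals mark the matches, which on the opposite strand read as the reverse complement, and each sequence runs 5′ to 3′ on the strand of its gene. *Gzmb*, in which the motif was not found, is shown for comparison.
Cpa3, chr3:20242182-20242281, minus strand: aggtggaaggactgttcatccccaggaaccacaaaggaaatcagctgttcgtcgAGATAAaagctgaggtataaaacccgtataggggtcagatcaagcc
Prss34, chr17:25298294-25298393, plus strand: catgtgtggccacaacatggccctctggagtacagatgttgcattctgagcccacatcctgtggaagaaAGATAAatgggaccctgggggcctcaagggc
Fcer1a, chr1:173227230-173227329, minus strand: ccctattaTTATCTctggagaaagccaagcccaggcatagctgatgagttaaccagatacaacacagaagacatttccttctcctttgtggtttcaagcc
Ms4a2, chr19:11623720-11623819, minus strand: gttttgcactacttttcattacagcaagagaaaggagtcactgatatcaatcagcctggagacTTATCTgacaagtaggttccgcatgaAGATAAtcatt
Gzmb, chr14:56262335-56262434, minus strand: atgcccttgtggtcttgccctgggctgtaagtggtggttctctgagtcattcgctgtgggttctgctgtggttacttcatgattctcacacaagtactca
Il1rl1, chr1:40429320-40429569, plus strand: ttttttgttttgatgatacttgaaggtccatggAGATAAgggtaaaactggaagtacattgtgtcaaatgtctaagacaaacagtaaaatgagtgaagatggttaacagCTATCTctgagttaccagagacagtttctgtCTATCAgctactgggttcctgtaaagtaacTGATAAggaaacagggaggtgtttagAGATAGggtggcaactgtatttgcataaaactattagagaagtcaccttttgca

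Of the 9 genes with a promoter, 6 held at least 1 GATA match, *Cpa3*, *Prss34*, *Fcer1a*, *Ms4a2*, *Hdc* and *Il1rl1*, in 7 of their promoters. The same letters occurred in 29.8% of all 32851 promoters of this length. The match lay 46 to 41 bases before the start in *Cpa3* and 31 to 26 bases before it in *Prss34*. In *Ms4a2* there were 3 matches, of which the pair nearest the start is shown, and in the first promoter of *Il1rl1* there were 5. None of the 13 GATA matches in these genes overlapped a match to another motif searched. The hypoxia response core bound by HIF, searched as CGTG preceded by A or G, was found for *Gata2* and *Il1rl1* only, beside 43.8% of all promoters. A RUNX motif, TGTGGT, was found for 5 of the genes (16.8% of all promoters), a PU.1 motif, GAGGAA, for 3 (28.3%), and a STAT motif, TTCNNNGAA, for *Gzmb* alone (8.30%). These matches describe the letters in a window and say nothing of which factor was bound.

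Among the granule proteases, *Tpsb2*, which encodes the tryptase mMCP-6 of connective tissue mast cells, had the largest mean difference of the 10 and was the least abundant with DMSO per kilobase of exon. It stood at 0.0706, 0.389, 13.0 and 8.49 CPM in DMSO libraries 1 to 4 and at 0.561, 2.49, 53.9 and 31.4 CPM in IOX5 libraries 1 to 4. The 4 libraries numbered 3 and 4 were all higher than the 4 numbered 1 and 2, and IOX5 was higher in every number. The mean difference within numbers was 1.96 ± 0.26 log2 units (SD, n = 4), with a prior count of 2 reads that draws the low values toward 0. In number 1 the value rested on 1 read with DMSO and 7 with IOX5, a ratio of 7.94 with an exact binomial 95% interval of 1.02 to 358, and in number 2 on 5 and 28 reads. Numbers 3 and 4 had 160 and 110 reads with DMSO and 690 and 362 with IOX5, ratios of 4.15 (3.49 to 4.96) and 3.70 (2.98 to 4.62). These intervals cover counting error only.

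*Cpa3* encodes carboxypeptidase A3, the metalloprotease of mast cell granules. Its level was 21.2, 18.0, 95.1 and 75.0 CPM in DMSO libraries 1 to 4, and 31.7, 50.6, 229 and 148 CPM in IOX5 libraries 1 to 4. Numbers 3 and 4 were again the high ones, and the lower of their DMSO libraries stood above both IOX5 libraries of numbers 1 and 2. Within numbers, *Cpa3* differed by 0.57, 1.49, 1.27 and 0.98 log2 units, with a mean of 1.08 ± 0.39 (SD, n = 4).

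*Prss34* encodes the basophil tryptase mMCP-11. With DMSO it was measured at 5.29, 33.7, 101 and 90.2 CPM in numbers 1 to 4, and with IOX5 at 5.93, 69.3, 196 and 158 CPM. Number 1 was far below the other 3, with 75 reads in DMSO and 74 in IOX5. Its ratio in number 1, 1.12, had an interval that included 1 (0.801 to 1.56), whereas the other 3 numbers had ratios of 2.06, 1.93 and 1.75 with intervals above 1. The mean difference was 0.74 ± 0.40 log2 units (SD, n = 4).

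*Mcpt8*, the basophil protease mMCP-8 and a standard marker of mouse basophils, was the most abundant of the 10 genes per kilobase under both treatments. DMSO libraries 1 to 4 held 46.0, 47.5, 188 and 156 CPM, and IOX5 libraries 1 to 4 held 55.0, 92.5, 260.3 and 223 CPM. Numbers 1 and 2 started from nearly the same level with DMSO and separated with IOX5, by a ratio of 1.20 (1.07 to 1.33) in number 1 and of 1.95 (1.76 to 2.16) in number 2. Its mean difference within numbers was 0.55 ± 0.29 log2 units (SD, n = 4).

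*Gzmb* encodes granzyme B, a serine protease of cytotoxic lymphocytes that mast cells and basophils can also make. Here the pattern over numbers was another one, with 44.2, 5.44, 48.6 and 46.5 CPM in DMSO libraries 1 to 4 and 70.9, 21.05, 106 and 79.5 CPM in IOX5 libraries 1 to 4. Number 2 was low under both treatments and the other 3 numbers were close to each other with DMSO. The largest difference was in number 2, at 1.92 log2 units, and the mean over numbers was 1.12 ± 0.56 (SD, n = 4).

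**Figure D1:**
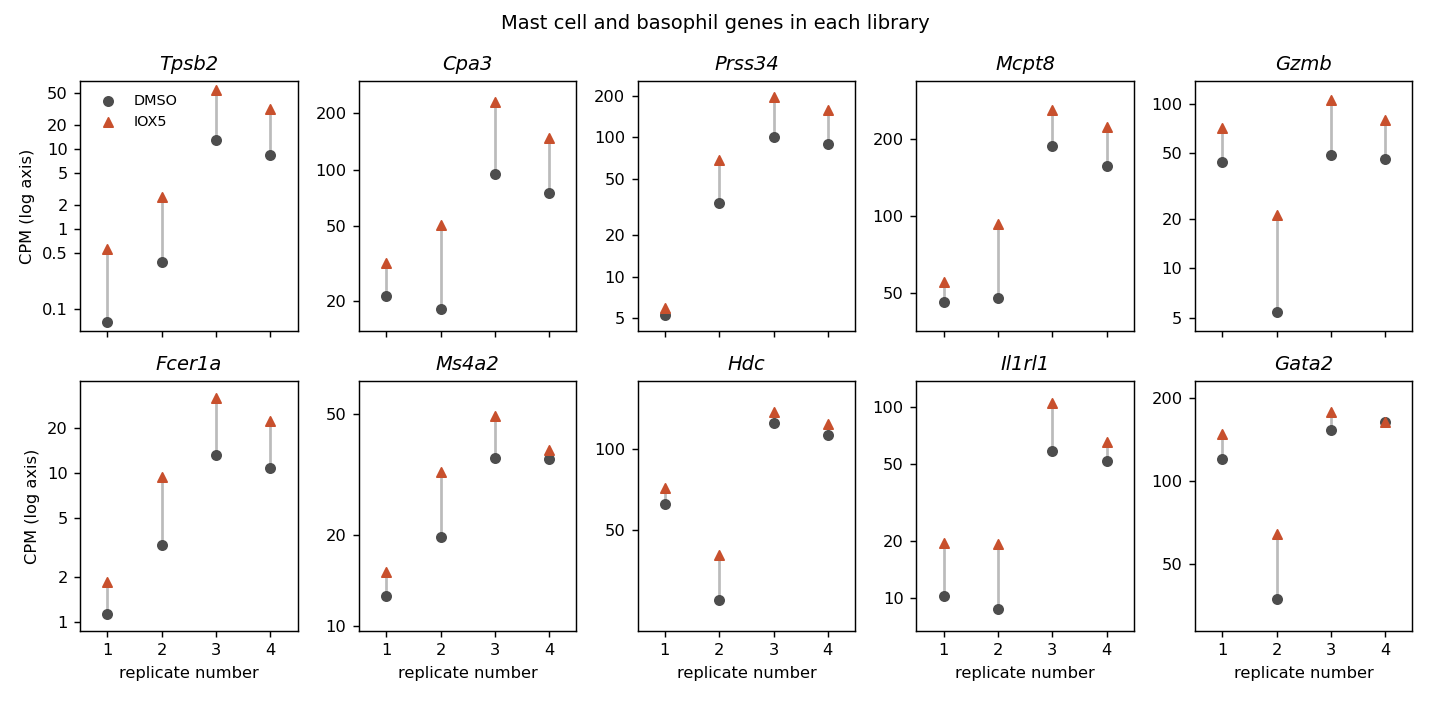
Level of each of the 10 genes in CPM (vertical log axes, each with its own range) by replicate number (horizontal axis), with grey circles for DMSO, orange triangles for IOX5 and a grey line joining the 2 libraries of a number. The IOX5 library lies above the DMSO library in all 4 numbers for 9 genes and in 3 for *Gata2*, and the numbers differ more than the treatments.

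The alpha and beta chains of the IgE receptor were both in the set. *Fcer1a*, the alpha chain that binds IgE, was at 1.13, 3.27, 13.2 and 10.8 CPM in DMSO libraries 1 to 4 and at 1.84, 9.41, 32.0 and 22.5 CPM in IOX5 libraries 1 to 4. Number 1 was the lowest and number 3 the highest under both treatments. The mean difference was 1.11 ± 0.36 log2 units (SD, n = 4), and in number 1, with 16 and 23 reads, the interval of the ratio included 1 (1.63, 0.825 to 3.30).

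*Ms4a2*, the beta chain that amplifies the signal of the receptor, gave 12.6, 19.7, 35.7 and 35.5 CPM with DMSO and 15.1, 32.1, 49.2 and 38.0 CPM with IOX5 in numbers 1 to 4. Number 1 was again the lowest and number 3 the highest, and its difference was smaller than that of *Fcer1a* in each number, with a mean of 0.38 ± 0.26 log2 units (SD, n = 4). Intervals included 1 in number 1 (ratio 1.20, 0.971 to 1.48) and in number 4 (1.07, 0.936 to 1.22). Of the 85-base windows of its transcripts, 0.891% were shared with *Ms4a4b*, and the other 9 genes shared none with another gene.

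*Hdc* encodes histidine decarboxylase, the enzyme that makes histamine. It was measured at 62.4, 27.5, 124 and 113 CPM in DMSO libraries 1 to 4 and at 71.5, 40.5, 137 and 124 CPM in IOX5 libraries 1 to 4. As for *Gzmb*, number 2 was the lowest under both treatments. The differences were 0.20, 0.56, 0.14 and 0.14 log2 units in the 4 numbers, and their mean of 0.26 ± 0.20 (SD, n = 4) was the smallest of the set. Without number 2 the log2 fold change of *Hdc* by edgeR was 0.16 in place of 0.24.

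*Il1rl1* encodes ST2, the receptor for the alarmin IL-33. Levels were 10.3, 8.79, 58.7 and 52.3 CPM in DMSO libraries 1 to 4 and 19.4, 19.2, 105 and 65.4 CPM in IOX5 libraries 1 to 4. Numbers 1 and 2 were alike, numbers 3 and 4 several fold higher, and the smallest difference was in number 4. The mean over numbers was 0.79 ± 0.34 log2 units (SD, n = 4).

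*Gata2*, the transcription factor needed for mast cell and basophil formation and also active in blood stem cells, was at 121, 37.2, 154 and 165 CPM in DMSO libraries 1 to 4 and at 148, 64.5, 178 and 164 CPM in IOX5 libraries 1 to 4. It was the 1 gene without a higher level in every number. In number 4 the ratio was 0.996 with an interval of 0.936 to 1.06, and in number 2, the lowest under both treatments, it was 1.73 (1.54 to 1.95). Its mean difference was 0.32 ± 0.34 log2 units (SD, n = 4), and without number 2 its log2 fold change by edgeR was 0.16 in place of 0.30.

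**Figure D2:**
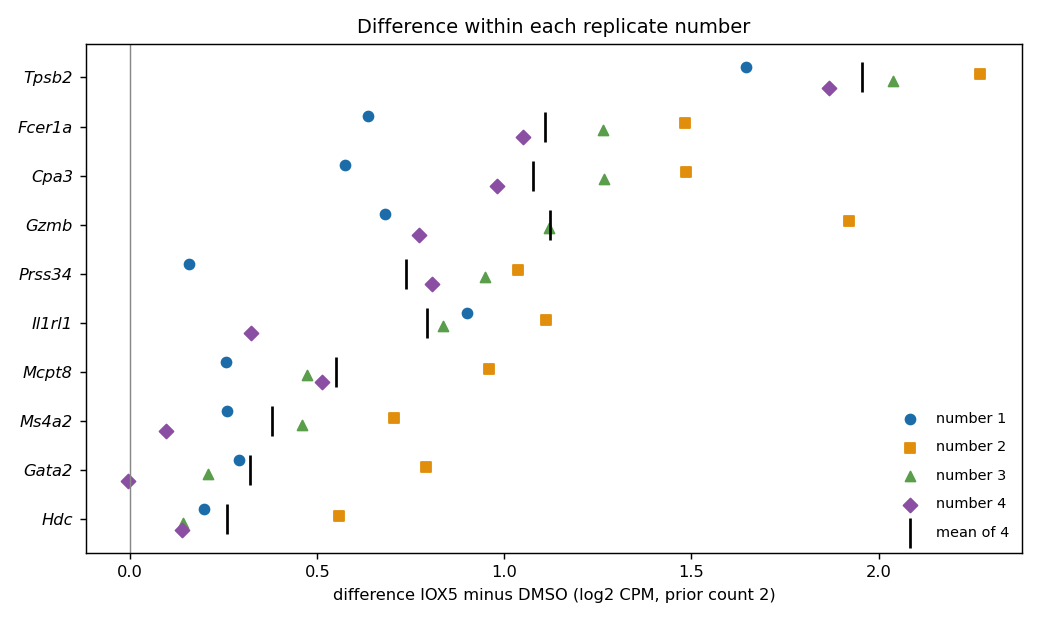
Difference between IOX5 and DMSO within each replicate number in log2 CPM with a prior count of 2 (horizontal axis) for each of the 10 genes (vertical axis), with 1 symbol per number and a black bar for the mean of the 4. Number 2 lies to the right of the other 3 numbers for all 10 genes, and 1 value, *Gata2* in number 4, is below 0.

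Read by number, the size of the difference was not the same across the set. The median log2 difference of the 10 genes was 0.43 in number 1, 1.07 in number 2, 0.89 in number 3 and 0.64 in number 4, while the median over all genes tested was within 0.04 of 0 in every number. On this scale, with its prior count of 2, number 2 held the largest difference of each of the 10 genes, while the ratio of reads of *Tpsb2* was larger in number 1 (7.94, from 1 and 7 reads) than in number 2 (6.39). Counting intervals lay above 1 for 7 genes in number 1, for all 10 in numbers 2 and 3 and for 8 in number 4, and for 0 genes in any number did an interval lie below 1. The intervals cover counting error only and were not computed for other genes, so no share over all genes stands beside these counts. Nothing is read from the counts, since the genes were chosen as higher in these libraries. Over the 10 genes the median log2 fold change was 0.80, against 0.01 over all genes tested. In bulk RNA, more cells of a type and more RNA per cell cannot be told apart.

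The DMSO libraries alone differed from number to number. The mean of DMSO libraries 3 and 4 was 18.1 times that of library 1 for *Prss34*, 10.6 times for *Fcer1a*, 5.38 times for *Il1rl1*, 4.01 times for *Cpa3* and 3.74 times for *Mcpt8*, but 1.32 times for *Gata2* and 1.08 times for *Gzmb*. Against library 2, the same mean was 27.6 times higher for *Tpsb2*, 8.73 times for *Gzmb*, 4.32 times for *Hdc* and 4.28 times for *Gata2*. The 10 genes thus fell into a larger group that was high in numbers 3 and 4 (*Tpsb2*, *Cpa3*, *Prss34*, *Mcpt8*, *Fcer1a*, *Ms4a2* and *Il1rl1*) and a smaller one that was low in number 2 beside number 1 as well (*Gzmb*, *Hdc* and *Gata2*). The division was not sharp for *Hdc*, whose mean of DMSO libraries 3 and 4 was also 1.90 times that of library 1.

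Correlations over the 8 libraries, which form 4 pairs with a shared number, describe the same division. Over the 45 pairs of genes the median Pearson r of log2 CPM was 0.86, and 17 pairs were over 0.9. *Tpsb2* and *Mcpt8* had an r of 0.99, as had *Fcer1a* and *Ms4a2*, the chains of 1 receptor. *Gzmb* and *Gata2* had an r of 0.96 and *Hdc* and *Gata2* of 0.95. *Hdc* had an r of 0.88 to *Gzmb* and stood near part of the larger group as well. There its r was 0.90 to *Il1rl1*, 0.83 to *Cpa3*, 0.82 to *Mcpt8* and 0.77 to *Tpsb2*, but 0.61 to *Fcer1a*, 0.57 to *Ms4a2* and 0.47 to *Prss34*. The lowest values joined the groups, with 0.16 for *Prss34* and *Gzmb* and 0.19 for *Prss34* and *Gata2*.

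**Figure D3:**
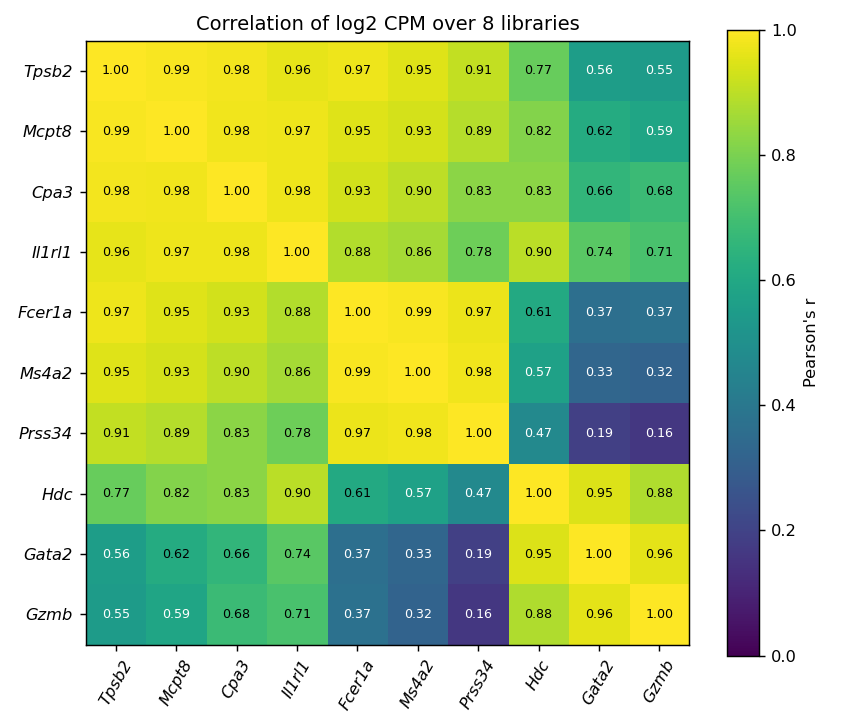
Pearson's r (color scale and printed value) between the log2 CPM of each pair of the 10 genes over 8 libraries, genes on both axes in the same order. A block from *Tpsb2* to *Prss34* and a block of *Hdc*, *Gata2* and *Gzmb* hold most of the high values, and the lowest, 0.16, joins *Prss34* and *Gzmb*.

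Per kilobase of exon, the order of the mean levels with DMSO was *Mcpt8* at 109.6 ± 73.6 CPM per kb (SD, n = 4), *Prss34* at 47.3 ± 37.5, *Cpa3* at 34.5 ± 25.5, *Gzmb* at 25.2 ± 14.3, *Gata2* at 22.1 ± 10.7, *Hdc* at 12.8 ± 7.06, *Ms4a2* at 9.20 ± 4.14, *Fcer1a* at 7.13 ± 5.84, *Il1rl1* at 4.72 ± 3.87 and *Tpsb2* at 3.44 ± 3.98. *Mcpt8* was above *Prss34*, and *Gata2* above *Hdc*, in all 8 libraries. Every other neighbor in this order changed places in at least 1 of the 8 libraries, so their order did not hold throughout. *Il1rl1* was above *Tpsb2* in all 4 DMSO libraries but in 2 of 4 with IOX5. *Gzmb* was above *Gata2* in 3 of 4 DMSO libraries and in all 4 with IOX5. With IOX5, *Tpsb2* reached 13.9 ± 16.0 CPM per kb and *Fcer1a* 16.5 ± 13.5, both then with means above the 11.9 ± 5.06 of *Ms4a2*.

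The genes whose log2 CPM over the 8 libraries was most like the mean of the 10, among genes with a mean of at least 1 CPM, were *Hgf* (r = 0.992), *Adgrg3*, *Fgfr1*, *Foxd1* (0.990 each), *Mycn* (0.986), *Nkg7*, *Gatm*, *Tmem51* (0.985 each), *Slc24a3* and *Il6* (0.984 each). *Hgf*, the hepatocyte growth factor, followed them at 11.8, 9.02, 43.1 and 42.4 CPM in DMSO libraries 1 to 4 and at 14.1, 16.3, 74.1 and 50.8 CPM in IOX5 libraries 1 to 4. *Adgrg3*, an adhesion G protein-coupled receptor of granulocytes, was also nearest to *Cpa3* (0.994), followed by *Padi2*, *Ptpn22*, *Fgfr1* and *Tmem51*, and nearest to *Mcpt8* (0.992), followed by *Nkg7*, *Scin*, *Alox15* and *Tmem51*. *Scin*, which encodes the actin-severing protein scinderin, went from 5.08, 7.31, 131 and 106 CPM with DMSO to 9.61, 16.5, 308 and 218 CPM with IOX5 in numbers 1 to 4.
Nearest to *Gata2* were *Hdac1* (0.992), *Perp*, *Ak3* (0.989 each), *Cyp11a1* and *Nectin1* (0.988 each). Pearson's r takes no account of the size of a change. *Hdac1* ran only from 159 to 188 CPM over the 8 libraries, where *Gata2* ran from 37.2 to 178, and *Adgrg3* ran from 151 to 237 CPM. *Cyp11a1*, the enzyme that starts steroid synthesis and is made by mast cells and basophils too, showed the low number 2 of *Gata2*, at 193, 36.1, 237 and 220.0 CPM with DMSO and 270.3, 83.6, 349 and 286 CPM with IOX5.

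*Mcpt8* and *Gzmb* lie in a cluster of serine protease genes on chromosome 14, and *Tpsb2* and *Prss34* in a tryptase cluster on chromosome 17. The annotated protease genes of the first, between 55941451 and 56262260 (GRCm38), numbered 15, of which 3 were tested, *Mcpt8*, *Ctsg* and *Gzmb*. Another 11 had at most 50 reads in all 8 libraries together, and 4 of these, among them *Mcpt4* and *Mcpt9*, had 0. *Ctsg*, the cathepsin G of neutrophil and mast cell granules, lies between *Mcpt8* and *Gzmb* and exceeded both per kilobase, with 1422 CPM per kb as the mean of DMSO and 1634 as that of IOX5. *Cma1*, a mast cell chymase, had 1, 8, 9 and 7 reads with DMSO and 3, 28, 22 and 8 with IOX5 and was not tested.
The tryptase cluster, between 25298394 and 25374442, held 6 genes, of which *Prss34*, *Tpsb2* and *Tpsg1* were tested. *Tpsab1*, the tryptase mMCP-7, had 0 reads in all 4 DMSO libraries and in IOX5 libraries 1 and 2, and 8 and 4 reads in IOX5 libraries 3 and 4. *Tpsg1*, a membrane-bound tryptase beside *Tpsb2*, had 17, 11, 100 and 113 reads with DMSO and 10, 27, 196 and 142 with IOX5, higher in 3 of 4 numbers (log2 fold change 0.68, edgeR adjusted p = 0.0307 with the block and 0.723 without). In both clusters, therefore, reads were concentrated on a few genes while their neighbors had few or none.

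**Figure D4:**
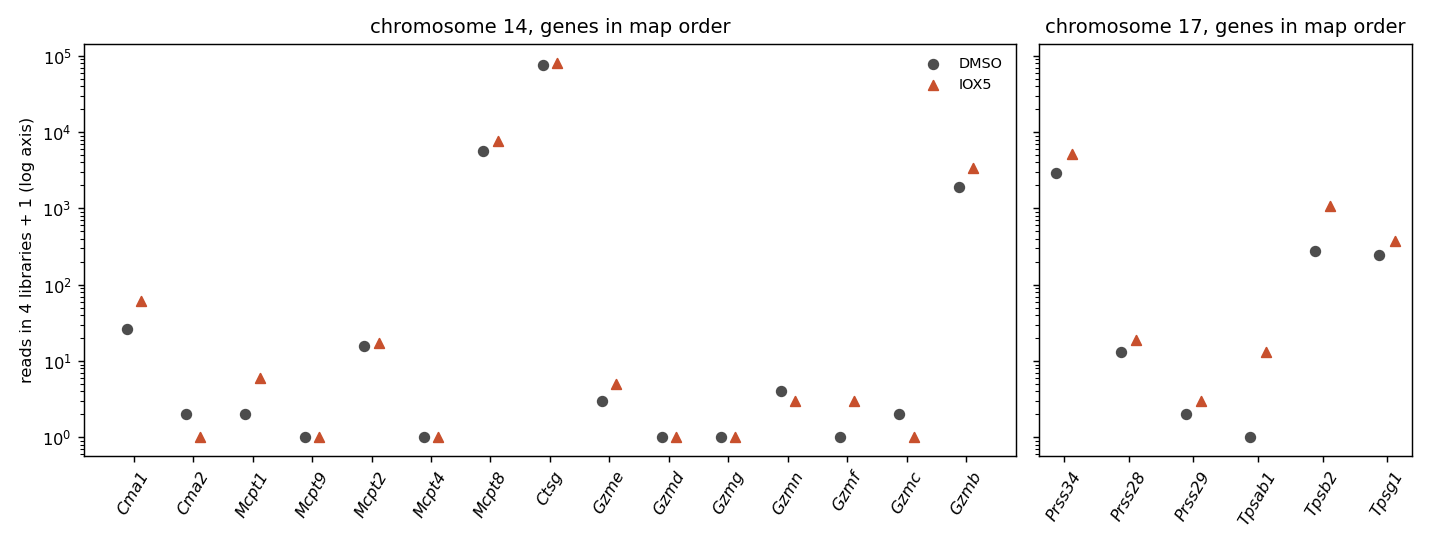
Reads summed over 4 libraries plus 1 (vertical log axis) for the protease genes of the clusters on chromosomes 14 and 17 in map order (horizontal axis, not to scale), with grey circles for DMSO and orange triangles for IOX5; the panels share the vertical axis. *Mcpt8*, *Ctsg*, *Gzmb*, *Prss34*, *Tpsb2* and *Tpsg1* stand above the other genes, and *Mcpt4* and *Mcpt9* lie at the bottom with 0 reads.

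Other genes of mast cells and basophils, which the choice of the 10 did not use directly, were examined in 5 lists of 104 genes, of which 83 were tested. With IOX5, 40 rose, 2 fell and 41 did not pass the test in the fit by edgeR with the block. The share that rose was 48.2%, beside 11.2% of all genes tested, and the share of all genes that fell was 9.43%. The median log2 fold change of the 83 was 0.26, against 0.01 over all genes. Without the block 2 rose and 0 fell (17 and 1 at an unadjusted p under 0.05), DESeq2 with the block gave 35 and 1 (8.13% and 6.65% of all its genes), and the block fit without number 3 gave 23 and 1 (5.14% and 3.23% of all genes). The lists and the 10 genes were picked on the same libraries, so neither is independent of the other.

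Of the granule proteases and other granule contents, 7 of the 9 tested rose (beside 11.2% of all genes tested), *Prss57*, *Cd63*, *Srgn*, *Slc18a2*, *Lgals3*, *Tpsg1* and *Ctsg*, and 0 fell (0 at an unadjusted p under 0.05 and 0 by DESeq2). *Cd63*, a tetraspanin of granule membranes that appears on the surface upon degranulation, had 495 ± 138 CPM with DMSO and 693 ± 128 with IOX5 (SD, n = 4; log2 fold change 0.51 ± 0.07 SE, edgeR adjusted p = 5.42e-04 with the block and 0.252 without). *Prss57*, a protease of myeloid granules, went from 43.0 ± 15.8 to 62.9 ± 22.7 CPM (0.56 ± 0.07, adjusted p = 3.69e-04 and 0.398). Its exons share 1157 bases with *Fstl3* on the opposite strand.

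Of the 23 genes of IgE receptor signaling, all tested, 7 rose, *Cd200r3*, *Orai1*, *Fcer1g*, *Lat2*, *Gab2*, *Pik3cd* and *Btk*, and 0 fell (0 at an unadjusted p under 0.05 and 0 by DESeq2), with a median log2 fold change of 0.09. *Fcer1g*, the signaling gamma chain that this receptor shares with other Fc receptors, had 116 ± 13.9 CPM with DMSO and 145 ± 37.2 with IOX5 (0.31 ± 0.08 SE, edgeR adjusted p = 0.0119 with the block, 0.298 without and 0.0685 without number 3). It was higher per kilobase than *Fcer1a* and *Ms4a2*, at 132 and 166 CPM per kb in the 2 groups, and numbers 3 and 4 did not stand above the others. *Orai1*, the calcium channel that opens after receptor crosslinking, went from 48.8 ± 2.63 to 66.5 ± 1.92 CPM with no overlap between the groups (0.45 ± 0.07, adjusted p = 9.91e-04 and 0.0181, past the threshold in both fits). *Cd200r3*, an activating receptor of mast cells and basophils, went from 25.1 ± 17.3 to 40.0 ± 24.7 CPM (0.74 ± 0.11, adjusted p = 8.73e-04 and 0.591).

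Of 16 tested cytokine and other surface receptors, 10 rose and 1 fell (beside 11.2% and 9.43% of all genes tested), with a median log2 fold change of 0.41. *Kit*, the stem cell factor receptor on which mast cells depend, was at 63.2, 44.0, 94.9 and 96.5 CPM in DMSO libraries 1 to 4 and at 82.4, 65.9, 133 and 108 CPM in IOX5 libraries 1 to 4. It was higher with IOX5 in every number (0.40 ± 0.07 SE, edgeR adjusted p = 0.00259 with the block and 0.489 without). *C5ar1*, the receptor for the complement fragment C5a, had the largest change of the lists, from 2.52 ± 1.25 to 12.2 ± 9.63 CPM (2.19 ± 0.18, adjusted p = 1.63e-05 and 0.0734), and unlike the 10 genes it was lowest in numbers 3 and 4.
*Csf2rb2*, a beta chain of the IL-3 receptor, went from 194 ± 60.4 to 296 ± 110.0 CPM (0.60 ± 0.09, edgeR adjusted p = 8.97e-04 and 0.280) and is uncertain because 8.79% of its 85-base windows are shared with *Csf2rb*. *Il1rap*, the chain that pairs with ST2 to form the IL-33 receptor, fell from 40.9 ± 12.0 to 34.03 ± 7.98 CPM (-0.25 ± 0.08, adjusted p = 0.0345 and 0.562), and this call was lost with DESeq2 (0.124) with no filter on low counts (0.0581), with numbers 3 and 4 summed (0.0576) and without number 1, 2 or 3 (0.125, 0.0768 and 0.134). *Mrgprb1* and *Mrgprb2*, receptors of connective tissue mast cells, had 0 reads in all 8 libraries.

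Of 18 tested transcription factors, 8 rose (beside 11.2% of all genes tested), *Cebpa*, *Tal1*, *Nfe2*, *Bhlhe40*, *Gata1*, *Tfec*, *Zfpm1* and *Gfi1*, and *Ikzf1* fell (9.43% of all genes). *Cebpa*, which favors the basophil over the mast cell fate, went from 115 ± 33.3 to 163 ± 41.3 CPM (0.51 ± 0.07 SE, edgeR adjusted p = 4.01e-04 with the block and 0.299 without). *Tal1*, a partner of GATA factors, showed the low number 2 of *Gata2*, at 22.8, 3.97, 39.7 and 37.2 CPM with DMSO and 34.4, 6.93, 58.2 and 48.7 CPM with IOX5 (0.54 ± 0.09, adjusted p = 0.00122 and 0.725). *Gata1* went from 8.50 ± 3.65 to 12.1 ± 4.79 CPM (0.52 ± 0.12, adjusted p = 0.00802, 0.528 without the block and 0.0695 without number 3).
*Mitf*, the master factor of mast cells, had 12.0 ± 1.91 CPM with DMSO and 13.6 ± 4.72 with IOX5 and did not pass the test (0.15 ± 0.12, edgeR adjusted p = 0.386 with the block and 0.711 without). *Ikzf1*, the lymphoid regulator Ikaros, fell from 380 ± 50.6 to 299 ± 35.3 CPM, lower in 4 of 4 numbers (-0.34 ± 0.06, adjusted p = 0.00280 and 0.135).

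Of 17 tested genes of lipid mediators and cytokines, 8 rose (beside 11.2% of all genes tested), *Cyp11a1*, *Ltc4s*, *Csf1*, *Ccl2*, *Alox5ap*, *Alox5*, *Il6* and *Ccl4*, and 0 fell (1 at an unadjusted p under 0.05 and 0 by DESeq2). *Ltc4s*, *Alox5* and *Alox5ap* belong to leukotriene synthesis. *Ltc4s*, the last enzyme on the way to leukotriene C4, went from 1.62 ± 0.676 to 3.58 ± 1.29 CPM (1.15 ± 0.20 SE, edgeR adjusted p = 0.00159 with the block and 0.124 without). *Cyp11a1*, described above beside *Gata2*, went from 171 ± 92.0 to 247 ± 114 CPM (0.63 ± 0.10, adjusted p = 0.00128 and 0.645). *Il9* had 0 reads in all libraries.

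**Figure D5:**
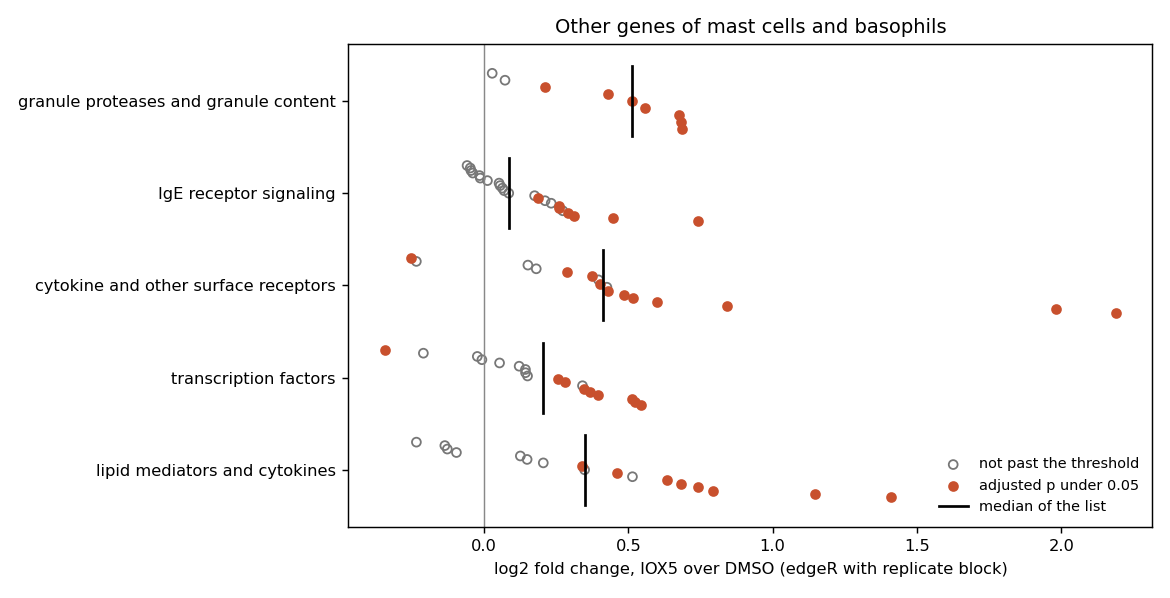
Log2 fold change of IOX5 over DMSO by edgeR with the replicate block (horizontal axis) for the 83 tested genes of 5 lists (vertical axis), with filled circles for an adjusted p under 0.05, open circles for the rest and a black bar for the median of each list. The medians lie between 0.09 and 0.51, and 40 filled circles lie to the right of 0 and 2 to the left.

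Markers of other cells that the culture could hold were set beside the 10 genes. The summed level of 11 neutrophil genes was 3685, 3832, 5991 and 5382 CPM in DMSO libraries 1 to 4 and 4081, 4815, 6775 and 6772 CPM in IOX5 libraries 1 to 4. This sum too was high in numbers 3 and 4 and higher with IOX5 in every number, and 8 of the 11 rose. The list was not uniform over numbers. With DMSO, *Mpo* (1339, 984, 3380 and 3077 CPM), *Prtn3* and *Cxcr2* were higher in numbers 3 and 4 than in numbers 1 and 2. *S100a8* (330, 497, 182 and 136 CPM), *S100a9*, *Ngp* and *Camp* were lower there, and the other genes of the list were mixed. Monocyte and macrophage genes summed to between 770.4 and 979 CPM with DMSO and between 941 and 1750 with IOX5, where 1750 was number 2, and 5 of 10 rose. Erythroid and megakaryocyte genes, which share *Gata1* and *Gata2* as regulators, summed to between 22.9 and 76.8 CPM with DMSO and between 44.8 and 129 with IOX5, lowest in number 2 under both treatments, and 3 of 9 rose.
Eosinophil genes summed to between 24.8 and 89.8 CPM with DMSO and between 39.2 and 311 with IOX5, where they were higher than with DMSO in numbers 1 and 2 (89.8 and 311 CPM in number 2) and lower in numbers 3 (80.7 and 47.4) and 4 (61.2 and 51.0), and 0 of the 4 tested passed (1 at an unadjusted p under 0.05 and 0 by DESeq2). Of the T and NK cell markers, *Cd3g*, *Cd4*, *Cd8a*, *Ncr1*, *Gzma*, *Prf1* and *Ifng* were at 0 in all libraries, and *Nkg7*, the 1 tested, rose. *Nkg7* was at 4.87, 5.44, 17.8 and 18.2 CPM in DMSO libraries 1 to 4, high in numbers 3 and 4. *Gzmb*, also a gene of T and NK cells, had another pattern, with number 1 close to numbers 3 and 4 with DMSO. The B cell marker *Ms4a1* was at 0, and the B cell list summed to at most 8.71 CPM. All 10 genes of the MLL-AF9 stem and progenitor list were tested and summed to between 1583 and 1768 CPM over the 8 libraries, with 4 higher and 1 lower. This list was not uniform over numbers either. With DMSO, *Cd34* and *Flt3* were higher in numbers 3 and 4 than in numbers 1 and 2, as in the larger group of the 10 genes. *Hoxa9*, *Hoxa10*, *Meis1* and *Ptprc* were lower there, and the rest were mixed. *Cd34* ran from 23.2 to 153 CPM with DMSO and from 35.4 to 231 CPM with IOX5, and was higher with IOX5 in every number. With the block, 11.2% of all genes tested were called higher and 9.43% lower. Without the block, 0 genes of any of the 7 marker lists were called by edgeR. Of all genes tested, 0.774% were then called higher and 1.25% lower, so nothing is read from this 0. The part that such other cells have in the levels of the 10 genes was not tested.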

How the data were processed

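RNA-seq of 8 samples was analysed, 4 with DMSO and 4 with IOX5, grouped by their labels. The libraries of the authors were directional, from poly(A) RNA, with single-end reads of 85 bases. Per their methods and the submitters' processing notes, adaptors were trimmed with cutadapt 1.18, reads were mapped to GRCm38 with HISAT2 2.2.1, and the deposited counts per Ensembl gene were made with HTSeq 2.0.1, without normalization or pooling. The annotation and strand setting of the counting are not given in the sources used here. Each file ends with 5 summary lines, which held 20.6% to 22.6% of reads and were left out. Reads that mapped to several places (9.15% to 10.0%) were not counted, which lowers genes with near copies.

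Symbols were taken from GENCODE M21, which matched 54809 of 54838 identifiers. Counts were filtered with filterByExpr, scaled with TMM and tested by the quasi-likelihood test of edgeR 4.0.16 (R 4.3.3) blocked by replicate number, with Benjamini-Hochberg adjustment over 12405 genes. Log2 CPM used a prior count of 2. Ratios of reads have exact binomial 95% intervals. The correlation of deviations from the group means between samples of the same number was 0.758, 0.744, 0.732 and 0.636 for numbers 1 to 4, and the highest with another number was 0.212, 0.212, 0.685 and 0.685. The value of 0.685 lay between numbers 3 and 4 and exceeded that of number 4 with itself. The numbers were taken as pairs because comparison within each number came with the definition of the gene set. The labels number both groups 1 to 4 but do not say what the numbers mark. Each of the 4 correlations of a number with itself was above 0.1. The highest correlations with another number were above 0.1 too, so this bar alone cannot decide how the libraries pair. Libraries 3 and 4 of each group differed by more than counting noise and were kept apart. Their chi-square per degree of freedom was 2.17 with DMSO and 9.28 with IOX5. Other pairs of libraries ran from 14.3 to 22.8 with DMSO and from 18.5 to 41.1 with IOX5. Numbers 3 and 4 were thus the closest pair in each group, and whether they are independent is not given.

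Alternatives were the fit without the block, DESeq2 1.42.0, limma 3.58.1 with voom, RLE and upper-quartile factors, no filter, at least 10 counts in every sample, thinning to 11351507 reads and leaving out each number. Summing numbers 3 and 4 was chosen after seeing the data. On simulated data the blocked fit recovered most changed genes and made more false calls than its threshold allows, so calls near the threshold are less certain.

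The 10 genes, the 5 pathway lists and the 7 marker lists were chosen with earlier results of these data known. Named genes are the 10, up to 2 called genes with the smallest adjusted p per direction in each pathway list, *Kit*, *Fcer1g*, *Gata1*, *Mitf*, *Tpsab1* and *Cma1*, the genes nearest in Pearson r, and the genes of the protease clusters. Some marker genes are also named beside the sum of their list. Genes listed by symbol alone are the calls of a list.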

Additional observations from a re-analysis of the deposited data

Results flagged for a closer look

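Over 52 groups of 4 libraries, each holding 1 gene and 1 treatment, 2 had a library far from the other 3 by Dixon's test at 95%, which marks about 1 group in 20 by chance. *Gzmb* stood at 5.44 CPM in DMSO replicate 2, where the other 3 DMSO libraries ran from 44.2 to 48.6 CPM. *Fcer1g* stood at 201 CPM in IOX5 replicate 2, where the other 3 IOX5 libraries ran from 126 to 129 CPM. Both are libraries of number 2.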

How the results depend on the processing

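The median log2 fold change of the 10 genes was 0.80 and lay between 0.73 and 0.91 when each replicate number was left out, at 0.81 with DESeq2 and at 0.79 with no replicate block. No gene of the 10 changed direction under any of these fits. Counts of calls depended on the replicate block. Without it, 96 genes in place of 1394 were higher, 155 in place of 1170 lower, and 2 of the pathway genes in place of 40 higher and 0 in place of 2 lower. Leaving out single numbers gave 642 to 1355 higher, 403 to 1058 lower, 23 to 37 pathway genes higher and 1 to 2 lower, with the fewest calls without number 3. DESeq2 gave 777 genes and 1 pathway gene lower. Summing numbers 3 and 4, chosen after seeing the data, gave 1183 genes higher and 791 lower, with 37 pathway genes higher and 1 lower. The cause of these changes was not tested, except that leaving out a number leaves fewer samples. Few reads limited *Tpsb2* in numbers 1 and 2, although DMSO library 1, with 1 read of it, was the deepest at 14116054 reads.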
